A study of Homo sapiens with 11 samples.

Results

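Translation initiation factor genes were compared between cells given a miR-365a-3p mimic and cells given a control miRNA, in 2 human cancer cell lines. They were chosen by name alone, as every gene whose symbol begins with EIF1 to EIF6, after 11 regulators that share the prefix were set aside (the eIF2 kinases EIF2AK, the Argonaute genes still listed as EIF2C, and the eIF4E-binding proteins EIF4EBP). The rule gave 48 of the 31325 gene symbols, and no measured value entered it. MDA-MB-231, a breast cancer line, was measured on 3 arrays after miR-365a-3p and on 3 after the control miRNA, and SKOV3, an ovarian cancer line, on 3 and 2 arrays, so that 11 arrays on a bead platform for human mRNA made 4 groups. The sample labels place all arrays at 48 h, the series text gives 24 h, and the labels name SKOV3 where the paper names its derivative SKOV3.ip1. A mimic is a synthetic duplex that carries the mature microRNA. Nothing in the labels says whether the arrays of a group came from separate transfections, so p-values measure the spread between arrays, which may be technical.

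Initiation is the step of translation at which a ribosome is placed on the start codon. eIF2 carries the initiator tRNA to the small ribosomal subunit and is recharged with GTP by eIF2B, eIF1 and eIF1A hold the subunit open for scanning, eIF3 is the large scaffold on its surface, and the eIF4F complex (the cap-binding eIF4E, the scaffold eIF4G and the helicase eIF4A) brings the mRNA. eIF5 and eIF5B then trigger GTP hydrolysis and subunit joining, and eIF6 keeps free large subunits apart from small ones. MicroRNAs act on the same machinery from the other side, since an Argonaute protein guided by the seed of the microRNA lowers the translation and the amount of its target mRNAs.

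The mimic is defined by its sequence, which is shown because the seed is what selects its targets. The mature sequence as held by RefSeq (GRCh38.p14), with the seed, bases 2 to 8, in capitals, is the same for the products of both human loci, MIR365A at chr16:14309340-14309361 on the plus strand and MIR365B at chr17:31575478-31575499 on the plus strand.
miR-365a-3p: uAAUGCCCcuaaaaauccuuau
No transcript sequences were used here, so matches to this seed in the initiation factor mRNAs were not searched.

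Values are on a log2 scale with a floor near 7.3, where most genes lie, and were quantile normalized across the 11 arrays. Before that step the 75th percentile of an array moved with the treatment, at 7.56 to 7.65 with miR-365a-3p against 7.86 to 7.93 in MDA-MB-231 controls and at 7.67 to 7.80 against 7.98 to 8.04 in SKOV3, and its part in the results was not tested. Of the 48 genes, 38 had a mean over all arrays above 8, called well expressed here, and 10 lay nearer the floor, where a change in mRNA gives little change in signal. The cell lines were checked in their control groups. ERBB2 (means of 7.61 in MDA-MB-231 and 10.86 in SKOV3), PAX8 and KRT8 were higher in SKOV3 by limma, 3 of 5 markers of that line, whereas none of 5 mesenchymal markers was called higher in MDA-MB-231 (1 of them, CD44, at an unadjusted p under 0.05), SPARC was higher in SKOV3, and MSN leaned the same way as SPARC (-0.55, adjusted p = 0.161). The first miR-365a-3p array of MDA-MB-231 was the lowest of its 3 for 28 of the 38 well-expressed genes (3071 of 6853 among all genes with a mean above 8), by a median of -0.25 against the mean of the other arrays, and the first miR-365a-3p array of SKOV3 was the lowest for 17 of 38 (2586 of 6853) and the highest for 9, with a median of -0.01. The MDA-MB-231 array thus stood apart for the initiation factors as a group, and the SKOV3 array for single genes such as EIF3A and EIF3L. Values without both arrays numbered 1, and with the array number as a block within each line, are given beside the calls that they change.

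With miR-365a-3p, initiation factor mRNAs moved in both directions, and the largest changes were falls. Both also held over all genes, whose differences ran from -3.80 to 2.89 in MDA-MB-231 and from -3.42 to 2.49 in SKOV3. By limma (adjusted p under 0.05 over all 31325 genes), 8 of the 48 genes rose and 13 fell in MDA-MB-231 cells, against 14.4% and 11.7% of all genes. In SKOV3 cells 9 rose and 5 fell, against 7.25% and 7.11% of all genes. As most of the 48 are well expressed, the closer background is that of the genes with a mean above 8, of which 39.0% rose and 26.2% fell in MDA-MB-231 and 23.4% rose and 15.3% fell in SKOV3. The 38 well-expressed initiation factors gave 8 rises (21.1%) and 11 falls (28.9%) in MDA-MB-231, and 9 rises (23.7%) and 4 falls (10.5%) in SKOV3. The share that rose in MDA-MB-231 was thus below that of genes of like level, and the other shares lay within 5 percentage points of theirs. No test of these shares was run. Over the 48 genes the median log2 difference was -0.10 in MDA-MB-231 and -0.02 in SKOV3, over the 38 well-expressed genes -0.17 and -0.03, and over all genes with a mean above 8 it was 0.17 and 0.15. Without the first miR-365a-3p array of either line the 48 genes had medians of -0.03 and 0.05, with 7 rises and 12 falls in MDA-MB-231 and 7 and 6 in SKOV3. All 31325 genes then gave 4353 rises and 3444 falls in MDA-MB-231 and 2304 and 2129 in SKOV3. The balance of directions also moved with the scaling. On the deposited values, without further normalization, 5 genes rose and 13 fell in MDA-MB-231 and 5 rose and 7 fell in SKOV3, after centring each array on its median 7 and 13 and then 5 and 7, and after cyclic loess 6 and 14 and then 6 and 6. The balance over all 31325 genes moved too. On the deposited values 2275 of them rose and 5620 fell in MDA-MB-231, and 1201 and 4401 in SKOV3. Median centring gave 3370 and 4879 and then 1729 and 3630. Cyclic loess gave 3876 and 3716 and then 1975 and 2794. Leaving out either SKOV3 control array, which leaves a single control, reduced the SKOV3 calls among the 48 genes. The calls over all genes were not counted in these fits, so the reduction is not a result about initiation factors.

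**Figure D1:**
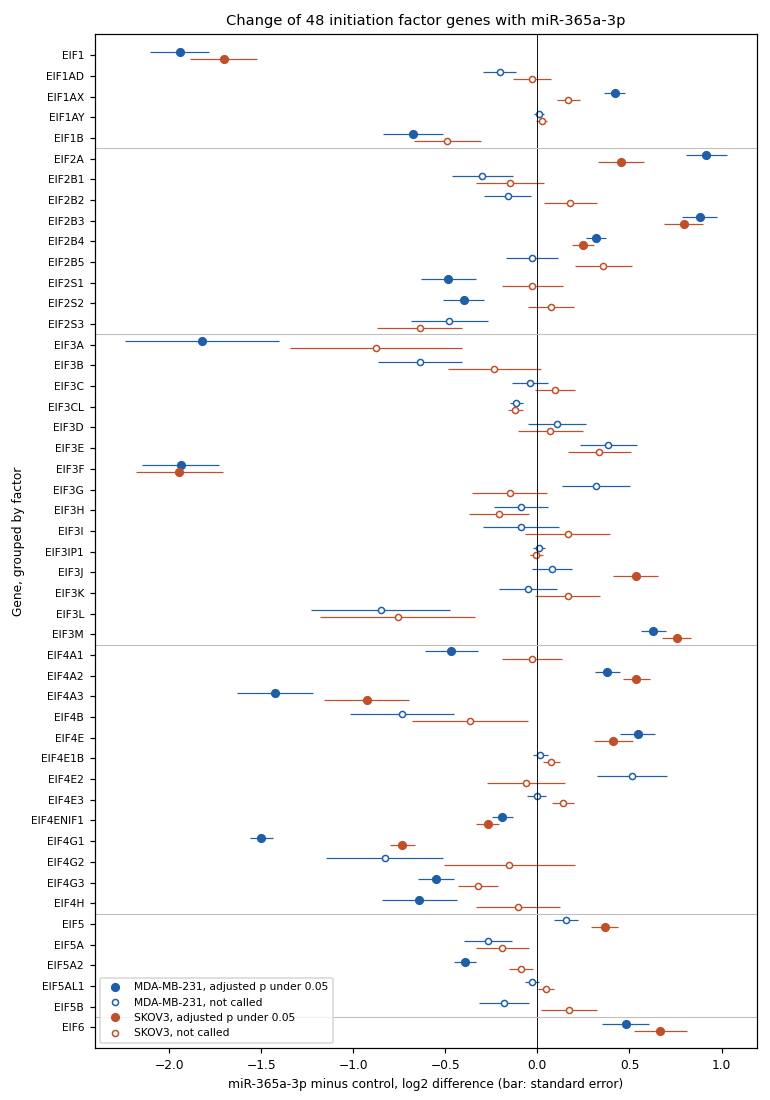
Log2 difference between miR-365a-3p and control for the 48 initiation factor genes, grouped by factor, in MDA-MB-231 (blue) and SKOV3 (red), with bars for the standard error of the limma fit and filled points for an adjusted p under 0.05. EIF1, EIF3F, EIF4A3 and EIF4G1 stand far to the left in both lines, while EIF2A, EIF2B3 and EIF3M lead the genes to the right.

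In both cell lines 7 genes rose (5.76% of all genes and 21.0% of those with a mean above 8 did so) and 5 fell (5.39% and 13.4%). The rises were EIF2A, EIF2B3, EIF2B4, EIF3M, EIF4A2, EIF4E and EIF6 (in MDA-MB-231 the sign turned for EIF2B4 on the deposited values and for EIF4A2 after cyclic loess), and the falls EIF1, EIF3F, EIF4A3, EIF4ENIF1 and EIF4G1. No gene was called in opposite directions by limma (0 at an unadjusted p under 0.05), and 25 of the 48 were called in neither line. Over all 31325 genes 23 were called in opposite directions and 22170 in neither line. Of the 38 well-expressed genes 17 were called in neither line, against 2110 of the 6853 genes with a mean above 8. The treated arrays of all 12 genes called in both lines lay wholly to one side of the controls in both lines. With so few arrays this also held for genes without a call, since 12 of the 48 genes were apart downwards and 9 upwards in both lines. How many of all genes were apart in this way was not counted, so the separation is given as a description only. An exact permutation of the treatment within the lines, two-sided on the mean of both differences, gave 0.005, the smallest p that its 200 arrangements allow, for 11 of the 12 called genes and 0.01 for EIF6. Since the arrays of these genes did not overlap in either line, a value at or near this minimum was fixed beforehand. It therefore adds nothing to the calls. The calls of EIF1, EIF3F and EIF4G1 (down) and of EIF2B3 and EIF3M (up) held in both lines under all 21 alternatives of processing, threshold and array left out. By factor, both lines called 1 of 5 eIF1 genes down, 3 of 9 eIF2 and eIF2B genes up, 1 of 15 eIF3 genes up and 1 down, 2 of 13 eIF4 genes up and 3 down, none of 5 eIF5 genes (1 of them, EIF5, at an unadjusted p under 0.05), and the 1 eIF6 gene up.

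**Figure D2:**
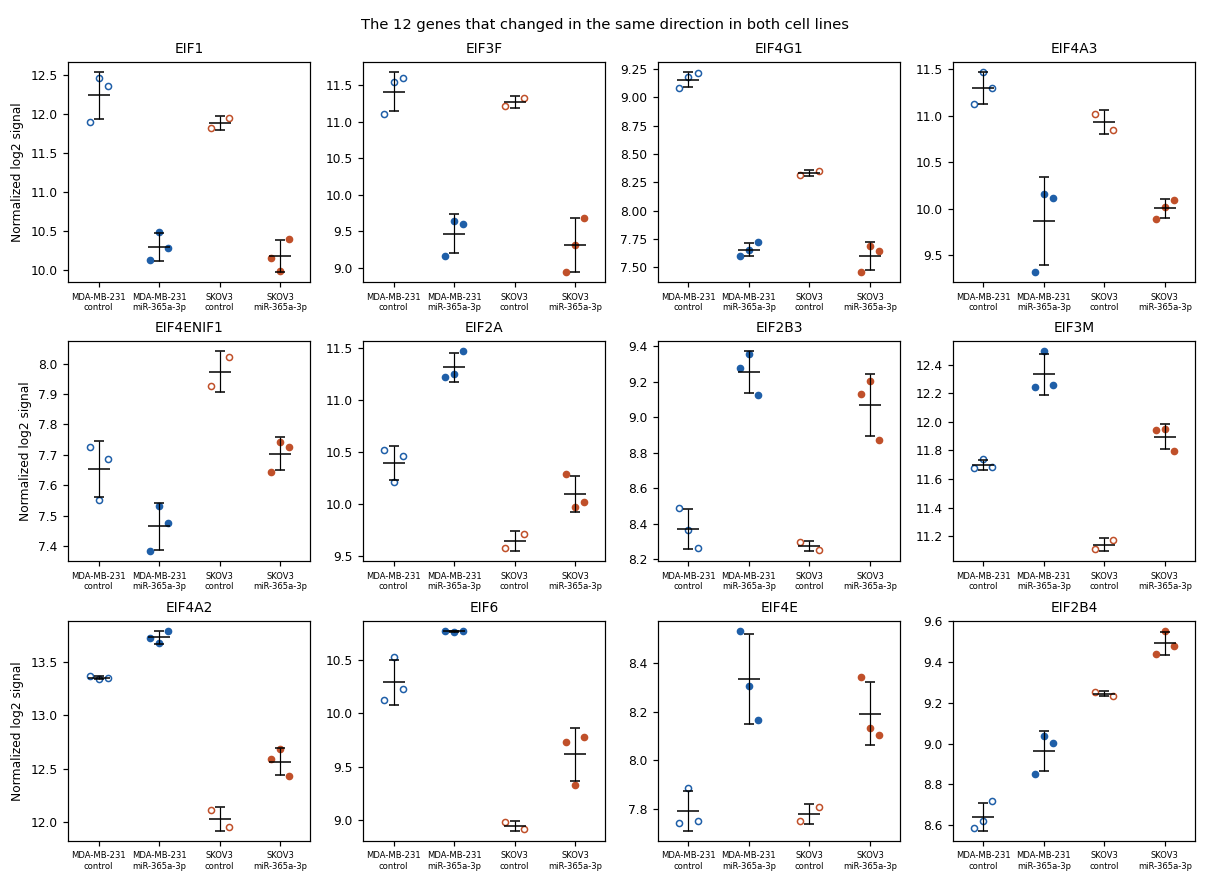
Normalized log2 signal on each array for the 12 genes called in the same direction in both cell lines, with open points for control arrays, filled points for miR-365a-3p arrays, and black bars for the mean and SD (3 arrays, or 2 for SKOV3 controls). In each panel the filled points lie wholly to one side of the open points of the same line, and the y axes differ between genes and do not start at 0.

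Among the eIF1 genes, EIF1, which guards the choice of the start codon, fell most. In MDA-MB-231 cells, EIF1 read 11.90, 12.46 and 12.35 on the control arrays and 10.13, 10.48 and 10.27 on the miR-365a-3p arrays. In SKOV3 cells the values were 11.82 and 11.94 with the control miRNA and 10.15, 9.99 and 10.39 with miR-365a-3p. Every miR-365a-3p array was more than 1 log2 unit below every control array of its line. The differences were -1.94 ± 0.16 (SE, adjusted p = 6.8e-05) in MDA-MB-231 and -1.70 ± 0.18 (SE, adjusted p = 0.000499) in SKOV3. EIF1B, a close paralog whose probes may share signal with EIF1, went from a mean of 10.06 to 9.38 in MDA-MB-231, a change of -0.68 ± 0.16 (SE, adjusted p = 0.0147), and its difference of -0.49 in SKOV3 was not called (adjusted p = 0.128), although the arrays of both lines did not overlap. With each line alone the MDA-MB-231 call of EIF1B was lost (adjusted p = 0.0532) and its SKOV3 difference was called (adjusted p = 0.0449). EIF1AX, the eIF1A that binds beside eIF1 on the small subunit, moved the other way. The MDA-MB-231 arrays gave 9.01, 8.99 and 9.07 for EIF1AX with the control miRNA and 9.44, 9.56 and 9.33 with miR-365a-3p. The SKOV3 controls gave 10.03 and 9.98, and the SKOV3 arrays with miR-365a-3p 10.17, 10.11 and 10.24. The MDA-MB-231 arrays with miR-365a-3p were all above the controls, a rise of 0.42 ± 0.06 (SE, adjusted p = 0.000838), and in SKOV3 the difference was 0.17 ± 0.06 (SE, adjusted p = 0.134), with no overlap of the arrays but no call. On the deposited values the MDA-MB-231 difference of EIF1AX was 0.16 (adjusted p = 0.268). EIF1AD and EIF1AY were near the floor and not called. EIF1AD was called down in MDA-MB-231 on the deposited values (-0.42, adjusted p = 0.0113) and after median centring (-0.39, adjusted p = 0.0166).

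The genes of eIF2 itself and of its exchange factor eIF2B did not move as one. Of the eIF2 subunits, EIF2S1 (alpha, the subunit whose phosphorylation slows initiation) and EIF2S2 (beta) fell in MDA-MB-231 and none of the 3 was called in SKOV3 by limma, where 1 of them, EIF2S3, had an unadjusted p under 0.05. EIF2S1 had a signal of 9.04, 8.96 and 8.85 on MDA-MB-231 controls and of 8.17, 8.55 and 8.67 after miR-365a-3p. On SKOV3 controls it was 8.55 and 8.54, and after miR-365a-3p 8.26, 8.76 and 8.53. The MDA-MB-231 groups did not overlap, the first miR-365a-3p array being the lowest, and in SKOV3 the control arrays fell inside the range of the miR-365a-3p arrays. The differences were -0.48 ± 0.15 (SE, adjusted p = 0.0408) and -0.03 ± 0.17 (SE, adjusted p = 0.967). The call of EIF2S1 was lost on leaving out any of 8 single arrays (differences of -0.54 to -0.33), which were miR-365a-3p array 1 or 2 or any control of MDA-MB-231 and miR-365a-3p array 3 or either control of SKOV3, and the difference in SKOV3 turned to 0.10 without the arrays numbered 1. With the array number as a block the adjusted p was 0.133 for EIF2S1 and 0.136 for EIF2S2 in MDA-MB-231. EIF2S2 changed by -0.40 ± 0.11 (SE, adjusted p = 0.0276) in MDA-MB-231, a call lost with any of 4 arrays of that line left out (miR-365a-3p 1 and 2, controls 1 and 3; -0.44 to -0.28) or without both arrays numbered 1 (-0.28, adjusted p = 0.0556), and by 0.07 in SKOV3. EIF2S3 is the gamma subunit, which binds the tRNA and GTP. Control arrays of MDA-MB-231 read 9.29, 9.40 and 9.25 for EIF2S3, and miR-365a-3p arrays 8.47, 9.08 and 8.95. For SKOV3 the control readings were 10.35 and 10.45, against 9.31, 9.87 and 10.10 with miR-365a-3p. The miR-365a-3p arrays were below the controls in both lines, again with the first the lowest. The differences were -0.48 and -0.64, with no call (adjusted p = 0.145 and 0.116). Without the arrays numbered 1 its differences were -0.29 and -0.40, and both were then called (adjusted p = 0.0392 and 0.0242).

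Of the 5 eIF2B subunits, EIF2B3 (gamma) and EIF2B4 (delta) rose in both lines and the other 3 were not called in either. In MDA-MB-231 cells, EIF2B3 read 8.49, 8.37 and 8.26 on the control arrays and 9.27, 9.36 and 9.13 on the miR-365a-3p arrays. In SKOV3 cells the values were 8.30 and 8.25 with the control miRNA and 9.13, 9.20 and 8.87 with miR-365a-3p. All 6 arrays with miR-365a-3p were above all 5 controls. EIF2B3 rose by 0.88 ± 0.10 (SE, adjusted p = 0.000256) in MDA-MB-231 and by 0.79 ± 0.11 (SE, adjusted p = 0.00159) in SKOV3. EIF2B4 rose less, by 0.32 ± 0.05 (SE, adjusted p = 0.00256) and 0.25 ± 0.06 (SE, adjusted p = 0.0280), and the call depended on the scaling, since the MDA-MB-231 difference was -0.02 on the deposited values and 0.01 after median centring. Its SKOV3 call was lost with SKOV3 miR-365a-3p array 2 or 3 or either SKOV3 control left out (0.22 to 0.26), and with the array number as a block (adjusted p = 0.0654). EIF2B5 (epsilon, the catalytic subunit) was not called. The MDA-MB-231 arrays gave 9.92, 9.54 and 9.93 for EIF2B5 with the control miRNA and 9.56, 9.76 and 9.996 with miR-365a-3p. The SKOV3 controls gave 8.63 and 8.55, and the SKOV3 arrays with miR-365a-3p 9.10, 8.79 and 8.96. The MDA-MB-231 groups overlapped, with a difference of -0.03 ± 0.14 (SE, adjusted p = 0.932), and the SKOV3 arrays with miR-365a-3p were all above the controls, with a difference of 0.36 ± 0.16 (SE, adjusted p = 0.199).

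EIF2A, which is not a subunit of eIF2 but a separate protein that can deliver initiator tRNA, had the highest estimate of all 48 genes in MDA-MB-231, less than 1 standard error above EIF2B3 and, after cyclic loess, below it (0.83 against 0.85). EIF2A had a signal of 10.51, 10.21 and 10.46 on MDA-MB-231 controls and of 11.21, 11.25 and 11.47 after miR-365a-3p. On SKOV3 controls it was 9.57 and 9.71, and after miR-365a-3p 10.29, 9.97 and 10.02. The groups did not overlap in either line. EIF2A rose by 0.92 ± 0.11 (SE, adjusted p = 0.000474) in MDA-MB-231, where the call held under all alternatives, and by 0.45 ± 0.12 (SE, adjusted p = 0.0428) in SKOV3. The SKOV3 call was lost with any of 7 single arrays left out (0.36 to 0.52), namely miR-365a-3p array 1 or 2 or control 3 of MDA-MB-231, and miR-365a-3p array 1 or 3 or either control of SKOV3. It was also lost without both arrays numbered 1 (0.35, adjusted p = 0.0949), after cyclic loess (0.40, adjusted p = 0.0746) and with the array number as a block (0.49, adjusted p = 0.120).

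eIF3 was the largest group, with 13 subunit genes, the near-identical copy EIF3CL and the pseudogene EIF3IP1, and 11 of the 15 were called in neither line. The subunits f, h and m form one module of the complex, and their mRNAs parted. EIF3F fell by nearly 2 log2 units, EIF3M rose, and EIF3H had differences of -0.09 and -0.21 with no call. Control arrays of MDA-MB-231 read 11.10, 11.53 and 11.59 for EIF3F, and miR-365a-3p arrays 9.16, 9.64 and 9.61. For SKOV3 the control readings were 11.21 and 11.32, against 8.95, 9.32 and 9.69 with miR-365a-3p. The control arrays of both lines were all above 11 and the miR-365a-3p arrays all below 10, the first being the lowest in each line. EIF3F changed by -1.94 ± 0.21 (SE, adjusted p = 0.000262) in MDA-MB-231 and by -1.95 ± 0.24 (SE, adjusted p = 0.000969) in SKOV3, and by -1.75 and -1.72 without the arrays numbered 1. In MDA-MB-231 cells, EIF3M read 11.68, 11.74 and 11.69 on the control arrays and 12.24, 12.49 and 12.26 on the miR-365a-3p arrays. In SKOV3 cells the values were 11.11 and 11.17 with the control miRNA and 11.94, 11.95 and 11.80 with miR-365a-3p. The 3 control arrays of MDA-MB-231 and the 2 of SKOV3 lay close together and below every miR-365a-3p array of the same line. EIF3M rose by 0.63 ± 0.07 (SE, adjusted p = 0.000269) and by 0.76 ± 0.08 (SE, adjusted p = 0.000405).

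EIF3A, the largest subunit and the one that carries the contacts of the core, was low on all miR-365a-3p arrays but by very different amounts. The MDA-MB-231 arrays gave 11.25, 11.42 and 11.09 for EIF3A with the control miRNA and 8.75, 9.62 and 9.92 with miR-365a-3p. The SKOV3 controls gave 10.79 and 10.78, and the SKOV3 arrays with miR-365a-3p 8.93, 10.46 and 10.34. The groups did not overlap, and the first miR-365a-3p array was the lowest in each line, in SKOV3 by more than 1 log2 unit. EIF3A fell by 1.82 ± 0.42 (SE, adjusted p = 0.0113) in MDA-MB-231, and its difference of -0.87 ± 0.47 (SE, adjusted p = 0.318) in SKOV3 was not called. Without the arrays numbered 1 the differences were -1.45 (adjusted p = 0.000185) and -0.38 (adjusted p = 0.105), and the difference between the lines, -0.95 with an adjusted p of 0.630 on all arrays, was then called at -1.07 (adjusted p = 0.0202). EIF3L, a subunit at the edge of the complex, had the same shape, with 12.37, 12.25 and 12.40 on MDA-MB-231 controls and 10.77, 11.72 and 11.96 with miR-365a-3p, and with 12.32 and 12.14 on SKOV3 controls against 10.65, 11.89 and 11.87 with miR-365a-3p. It was not called on all arrays (-0.85 and -0.76), and without the arrays numbered 1 it was called in MDA-MB-231 at -0.48 (adjusted p = 0.00559) and had -0.33 in SKOV3 (adjusted p = 0.0594). EIF3J, a loosely bound subunit, rose in SKOV3 (0.54 ± 0.12 SE, adjusted p = 0.0200) and had 0.08 in MDA-MB-231 (adjusted p = 0.726). The SKOV3 call of EIF3J was lost without SKOV3 miR-365a-3p array 1 or either control (0.47 to 0.61), without both arrays numbered 1 (0.48, adjusted p = 0.0539) and on the deposited values (0.28, adjusted p = 0.212). The other 10 genes, EIF3B to EIF3E, EIF3G to EIF3I, EIF3K, EIF3CL and EIF3IP1, were called in neither line, with differences from -0.64 for EIF3B to 0.39 for EIF3E in MDA-MB-231. Some of these genes were called under other processing. EIF3E, at 0.39 and 0.34, was called up in both lines on the deposited values (0.55, adjusted p = 0.0153, and 0.56, adjusted p = 0.0327) and after median centring (0.59 and 0.60), and in MDA-MB-231 also with the array number as a block. EIF3CL, whose group means lay near the floor, was called down in both lines on the deposited values (-0.19 and -0.29) and after median centring. EIF3B was called down in MDA-MB-231 after cyclic loess (-0.75, adjusted p = 0.0309) and by 4 other alternatives, and EIF3H in SKOV3 with the array number as a block (-0.33, adjusted p = 0.0110).

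**Figure D3:**
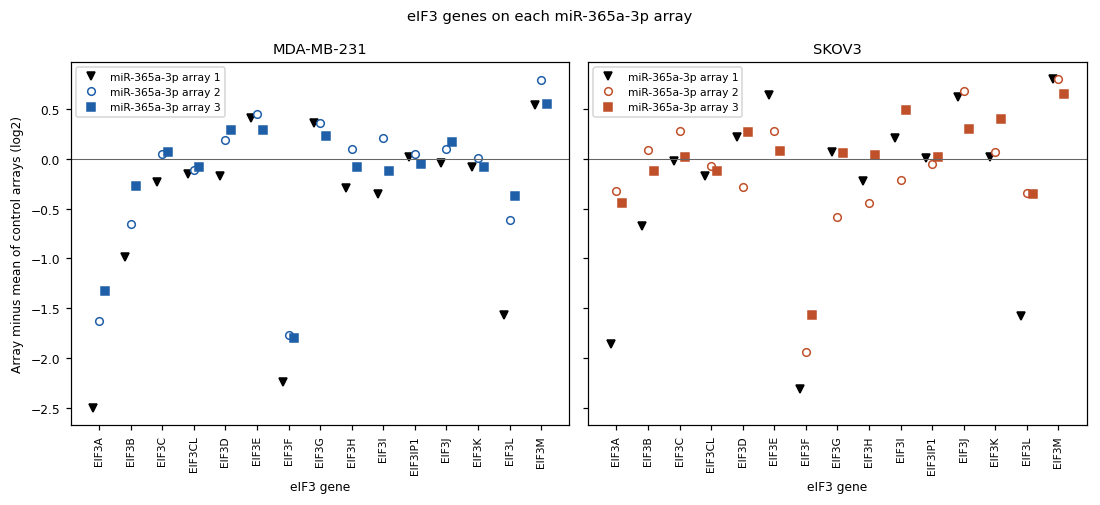
Each miR-365a-3p array minus the mean of the control arrays of its line, in log2, for the 15 eIF3 genes, with black triangles for array 1, open circles for array 2 and filled squares for array 3. Array 1 lies below the other arrays for EIF3A, EIF3B, EIF3F and EIF3L in both lines, by more than 1 log2 unit against their mean for EIF3A and EIF3L, and all arrays lie below -1.5 for EIF3F and above 0.5 for EIF3M.

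The eIF4 genes held the second group of large falls, and the 3 parts of the cap-binding complex eIF4F moved differently. Of the scaffolds, EIF4G1, the main eIF4G, fell in both lines. EIF4G1 had a signal of 9.08, 9.18 and 9.21 on MDA-MB-231 controls and of 7.60, 7.65 and 7.72 after miR-365a-3p. On SKOV3 controls it was 8.31 and 8.35, and after miR-365a-3p 7.46, 7.69 and 7.65. The spread within groups was small and the groups were far apart in both lines, and with miR-365a-3p both lines reached a similar level near the floor from different starting levels. EIF4G1 changed by -1.50 ± 0.06 (SE, adjusted p = 2.75e-06) in MDA-MB-231 and by -0.73 ± 0.07 (SE, adjusted p = 0.000285) in SKOV3. EIF4G3, its paralog, fell by 0.55 ± 0.10 (SE, adjusted p = 0.00332) in MDA-MB-231 under all alternatives, and in SKOV3 it had -0.32 (adjusted p = 0.0929). On the deposited values the SKOV3 difference of EIF4G3 was -0.63 and was called (adjusted p = 0.00399), as it was with the array number as a block (-0.31, adjusted p = 0.0200). EIF4G2, a related protein that cannot bind eIF4E, was not called, at -0.83 and -0.15 (adjusted p = 0.0980 and 0.904), except in MDA-MB-231 with an intensity trend (adjusted p = 0.0298).

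The cap-binding EIF4E rose where its scaffold fell. Control arrays of MDA-MB-231 read 7.74, 7.88 and 7.75 for EIF4E, and miR-365a-3p arrays 8.53, 8.31 and 8.17. For SKOV3 the control readings were 7.75 and 7.81, against 8.34, 8.13 and 8.10 with miR-365a-3p. The groups did not overlap, but the controls lay near the floor, where differences are compressed. EIF4E rose by 0.54 ± 0.10 (SE, adjusted p = 0.00314) and 0.41 ± 0.11 (SE, adjusted p = 0.0347). On the deposited values the differences were 0.20 and 0.15, neither of them called, and the SKOV3 call was also lost with any of 6 single arrays left out (0.34 to 0.44), namely miR-365a-3p array 2 or control 1 or 3 of MDA-MB-231, and miR-365a-3p array 1 or either control of SKOV3, and with the array number as a block (0.46, adjusted p = 0.103). EIF4E2, a cap-binding protein that represses translation, read 9.22, 9.98 and 9.57 on MDA-MB-231 controls and 10.04, 10.16 and 10.10 with miR-365a-3p, and 10.41 and 10.27 on SKOV3 controls against 10.37, 9.97 and 10.49 with miR-365a-3p. The groups of MDA-MB-231 did not overlap but the controls were widely spread (0.51 ± 0.19 SE, adjusted p = 0.0843), and in SKOV3 the groups overlapped (-0.06 ± 0.21 SE, adjusted p = 0.940). In MDA-MB-231 EIF4E2 was called up with dim genes left out (adjusted p = 0.0437) and without control 2 of that line (0.71, adjusted p = 0.0156). EIF4E3, with a mean nearer the floor, had -0.005 in MDA-MB-231 and 0.14 in SKOV3 and was not called (adjusted p = 0.973 and 0.182). Without both arrays numbered 1 it was called up in SKOV3 (0.21, adjusted p = 0.0346). EIF4ENIF1, which binds eIF4E and withdraws it from translation, fell a little in both lines. In MDA-MB-231 cells, EIF4ENIF1 read 7.72, 7.55 and 7.69 on the control arrays and 7.38, 7.53 and 7.48 on the miR-365a-3p arrays. In SKOV3 cells the values were 7.93 and 8.02 with the control miRNA and 7.64, 7.74 and 7.73 with miR-365a-3p. The groups did not overlap, though in MDA-MB-231 by a narrow margin. The differences were -0.19 ± 0.06 (SE, adjusted p = 0.0365) and -0.27 ± 0.06 (SE, adjusted p = 0.0221). The MDA-MB-231 call was lost without miR-365a-3p array 1 or 3, control 1 or 3, or SKOV3 miR-365a-3p array 3 (-0.20 to -0.15), and the SKOV3 call without SKOV3 miR-365a-3p array 1 or either control (-0.31 to -0.22). Without both arrays numbered 1 the MDA-MB-231 difference of EIF4ENIF1 was -0.16 (adjusted p = 0.103), and with the array number as a block the adjusted p was 0.129 in MDA-MB-231 and 0.120 in SKOV3.

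The 3 helicase genes showed 3 patterns. EIF4A1, the main eIF4A, fell in MDA-MB-231. The MDA-MB-231 arrays gave 12.66, 12.71 and 12.97 for EIF4A1 with the control miRNA and 11.99, 12.44 and 12.50 with miR-365a-3p. The SKOV3 controls gave 11.51 and 11.45, and the SKOV3 arrays with miR-365a-3p 11.29, 11.62 and 11.44. The miR-365a-3p arrays of MDA-MB-231 were below the controls, the first by the most, and the SKOV3 groups overlapped. The differences were -0.47 ± 0.15 (SE, adjusted p = 0.0440) and -0.03 ± 0.16 (SE, adjusted p = 0.964). The call of EIF4A1 was lost in 14 of 21 alternatives, among them the deposited values (-0.19, adjusted p = 0.388) and any of 8 single arrays left out (all but miR-365a-3p array 3 of MDA-MB-231 and miR-365a-3p arrays 1 and 2 of SKOV3, -0.53 to -0.30), and without both arrays numbered 1 it was -0.30 (adjusted p = 0.0662). EIF4A2, a near copy of EIF4A1 with which probes may share signal, rose in both lines. EIF4A2 had a signal of 13.37, 13.34 and 13.35 on MDA-MB-231 controls and of 13.73, 13.67 and 13.79 after miR-365a-3p. On SKOV3 controls it was 12.11 and 11.95, and after miR-365a-3p 12.59, 12.68 and 12.43. The groups did not overlap. EIF4A2 rose by 0.38 ± 0.07 (SE, adjusted p = 0.00278) and 0.54 ± 0.07 (SE, adjusted p = 0.00177), except that after cyclic loess the MDA-MB-231 difference was -0.04 (adjusted p = 0.866) and the SKOV3 difference 0.36 (adjusted p = 0.0742). EIF4A3 belongs to the exon junction complex, which marks spliced mRNA, rather than to eIF4F. Control arrays of MDA-MB-231 read 11.12, 11.47 and 11.30 for EIF4A3, and miR-365a-3p arrays 9.32, 10.16 and 10.12. For SKOV3 the control readings were 11.02 and 10.84, against 9.89, 10.02 and 10.10 with miR-365a-3p. All miR-365a-3p arrays were below all controls, and the first array of MDA-MB-231 was the lowest. EIF4A3 changed by -1.43 ± 0.21 (SE, adjusted p = 0.00112) in MDA-MB-231 and by -0.93 ± 0.23 (SE, adjusted p = 0.0285) in SKOV3. The SKOV3 call was lost with any single SKOV3 array left out (-1.02 to -0.85). It was also lost on the deposited values (-0.91, adjusted p = 0.0636) and after median centring (-0.88, adjusted p = 0.0728). Of the helicase cofactors, EIF4H fell in MDA-MB-231 (-0.64 ± 0.20 SE, adjusted p = 0.0480), a call lost with any of 8 single arrays left out (miR-365a-3p array 1 or 2 or any control of MDA-MB-231, miR-365a-3p array 2 or either control of SKOV3, -0.69 to -0.42) and with the array number as a block (adjusted p = 0.0570). The EIF4H call was also lost on the deposited values (-0.67, adjusted p = 0.0525), after median centring (-0.64, adjusted p = 0.0586) and with each line alone (adjusted p = 0.0697). EIF4B was not called (-0.73 and -0.36), except in MDA-MB-231 by 3 alternatives, among them an intensity trend (adjusted p = 0.0340).

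Of the 5 eIF5 genes, 1 rose in SKOV3 and 1 fell in MDA-MB-231. EIF5, which stimulates GTP hydrolysis by eIF2, rose in SKOV3. In MDA-MB-231 cells, EIF5 read 8.17, 8.37 and 8.36 on the control arrays and 8.40, 8.50 and 8.46 on the miR-365a-3p arrays. In SKOV3 cells the values were 8.25 and 8.23 with the control miRNA and 8.70, 8.49 and 8.61 with miR-365a-3p. The arrays with miR-365a-3p were above the controls in both lines, narrowly in MDA-MB-231. The differences were 0.15 ± 0.06 (SE, adjusted p = 0.133) and 0.36 ± 0.07 (SE, adjusted p = 0.0108). On the deposited values EIF5 had -0.23 in MDA-MB-231 and 0.09 in SKOV3, with no call in either line, and the SKOV3 call was lost without either SKOV3 control (0.36 to 0.38). EIF5B, the GTPase of subunit joining, read 9.44, 8.95 and 9.13 on MDA-MB-231 controls against 8.82, 8.99 and 9.15 with miR-365a-3p, which overlapped, with a difference of -0.18 ± 0.14 (SE, adjusted p = 0.434). In SKOV3 it read 8.83 and 8.86 against 8.84, 9.17 and 9.05, again with overlap, and differed by 0.17 ± 0.15 (SE, adjusted p = 0.622). EIF5A, which carries the modified amino acid hypusine and acts mostly in elongation, was not called (-0.27 and -0.19), except in MDA-MB-231 under some alternatives, among them each line alone (adjusted p = 0.00974). Its paralog EIF5A2 fell in MDA-MB-231 from a mean of 7.80 to 7.40, close to the floor (-0.39 ± 0.06 SE, adjusted p = 0.00131), and had -0.09 in SKOV3. In SKOV3 EIF5A2 was called down on the deposited values (-0.30, adjusted p = 0.00932) and after median centring (-0.26, adjusted p = 0.0206).

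EIF6 rose in both lines. The MDA-MB-231 arrays gave 10.12, 10.52 and 10.22 for EIF6 with the control miRNA and 10.77, 10.77 and 10.77 with miR-365a-3p. The SKOV3 controls gave 8.98 and 8.92, and the SKOV3 arrays with miR-365a-3p 9.73, 9.33 and 9.78. The 3 miR-365a-3p arrays of MDA-MB-231 were almost equal and above the spread of the controls, and the SKOV3 groups were well apart. EIF6 rose by 0.48 ± 0.13 (SE, adjusted p = 0.0229) and 0.67 ± 0.14 (SE, adjusted p = 0.0152). The MDA-MB-231 call was lost with any miR-365a-3p array or with control 1 or 3 of that line left out (0.40 to 0.48), and the SKOV3 call with either SKOV3 control left out (0.64 to 0.71). Without both arrays numbered 1 EIF6 was called in neither line (0.47, adjusted p = 0.0613, and 0.59, adjusted p = 0.0576), nor was it on the deposited values (0.46 and 0.51, adjusted p = 0.0552 and 0.0720), and with the array number as a block the SKOV3 call was lost (0.58, adjusted p = 0.0657). A separate row of the same gene under its older symbol ITGB4BP, which the rule did not take, rose by 0.38 ± 0.09 (SE, adjusted p = 0.0130) and 0.67 ± 0.10 (SE, adjusted p = 0.00268). LGTN, the older symbol of EIF2D, another factor that can deliver tRNA, rose by 0.72 ± 0.09 (SE, adjusted p = 0.000605) and 0.53 ± 0.10 (SE, adjusted p = 0.00996), the second call being lost without either SKOV3 control (adjusted p = 0.0866 and 0.0559).

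The response of the lines was compared by the difference of the differences, in MDA-MB-231 minus that in SKOV3. limma called 1 of the 48 genes, against 2.54% of all genes and 4.01% of those with a mean above 8. This was EIF4G1, with -0.77 ± 0.09 (SE, adjusted p = 0.00414), the fall in MDA-MB-231 being the larger. Its means went from 9.16 to 7.66 in MDA-MB-231 and from 8.33 to 7.60 in SKOV3, both ending near the floor. SKOV3 thus had less room to fall, and the part of this in the difference was not tested. The call held in the 20 alternatives that gave this contrast, with values from -0.83 to -0.63 and an adjusted p of 0.0495 with the array number as a block. For the others a call in 1 line only does not show that the lines differed, and the estimate leaned towards lower values in MDA-MB-231 in 33 of 48 genes. The share of all genes that did so was not counted. The median of this difference was -0.20 over the 38 well-expressed genes and 0.03 over all genes with a mean above 8. Without the arrays numbered 1 these medians were -0.14 and 0.04. Leaving out the first miR-365a-3p array of SKOV3 added EIF5A2 (-0.38, adjusted p = 0.0208), and leaving out the arrays numbered 1 of both lines added EIF5A2 and EIF3A. Across the 38 well-expressed genes the differences of both lines had a Pearson r of 0.898, and across all 6853 genes with a mean above 8 r was 0.855, a description across genes, which are not independent replicates.

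In the control groups, which also enter the comparisons above, 14 of the 48 genes were higher in MDA-MB-231 and 6 in SKOV3, against 7.76% and 8.34% of all genes. Of the 38 well-expressed genes, 14 (36.8%) were higher in MDA-MB-231 and 4 (10.5%) in SKOV3, against 20.0% and 19.2% of all genes with a mean above 8. Higher in MDA-MB-231 were EIF6 (1.34 ± 0.14 SE, adjusted p = 0.000259), EIF4A2 (1.32 ± 0.07 SE, adjusted p = 6.7e-06) and EIF4A1 (1.30 ± 0.16 SE, adjusted p = 0.000651) by the most. EIF2B5, EIF3J, EIF2B2 and EIF5A followed at 1.21 to 1.04, and then EIF3B, EIF2S2, EIF4G1, EIF2A, EIF3D, EIF3H and EIF3M at 0.94 to 0.56. The neighbours among EIF6, EIF4A2, EIF4A1 and EIF2B5 differ by less than 1 standard error. Higher in SKOV3 were EIF2S3, EIF1AX and EIF4E2 by the most, and then EIF2B4, EIF4E3 and EIF4ENIF1. The arrays of EIF2S3 and EIF1AX are given above, and each was about 1 log2 unit higher in SKOV3. The groups did not overlap for either of them, with -1.09 ± 0.23 (SE, adjusted p = 0.0120) and -0.98 ± 0.06 (SE, adjusted p = 1.58e-05). EIF4E2 differed by -0.75 ± 0.21 (SE, adjusted p = 0.0433). Of the 5 eIF2B subunits 2 were thus higher in MDA-MB-231 and 1 in SKOV3, and of the eIF2 subunits 1 in each. Leaving out SKOV3 control array 2, which leaves a single control, reduced both counts of the 48 genes. The calls over all genes were not counted in that fit.

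**Figure D4:**
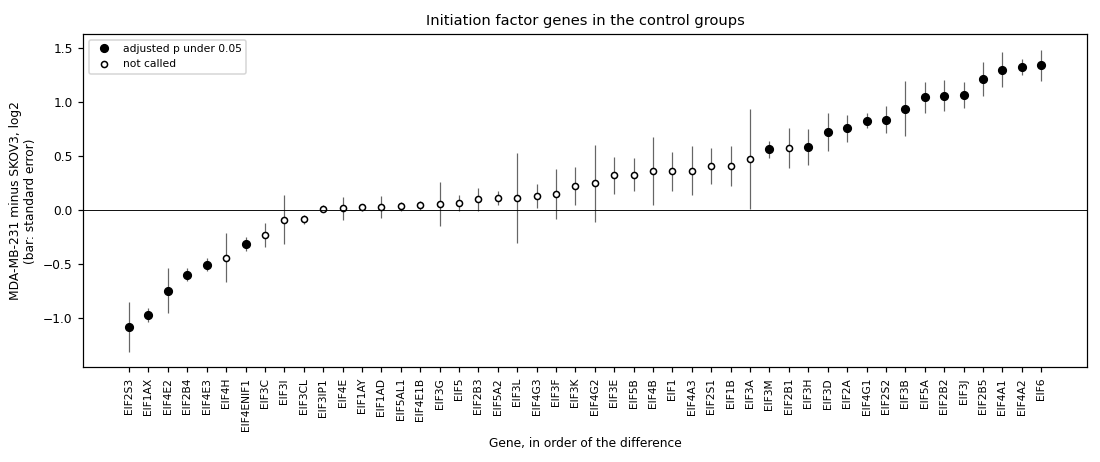
Difference between the control groups, MDA-MB-231 minus SKOV3 in log2, for the 48 initiation factor genes in order, with bars for the standard error and filled points for an adjusted p under 0.05. The 14 filled points above 0 run up to EIF6 at 1.34 and the 6 below 0 run down to EIF2S3 at -1.09.

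The regulators and partners of the factors were called more often down than up. The list of partners was chosen for role but with earlier results of these data known, so no conclusion is drawn from its balance of directions. Of the 11 regulators set aside by the rule, 6 fell in MDA-MB-231 and 5 in SKOV3, none rose, and 5 of the 11 had a mean above 8. The shares that fell over all genes were 11.7% and 7.11%, and over genes with a mean above 8 26.2% and 15.3%. Falls in both lines were those of the eIF2 kinases EIF2AK1 (-1.33 and -1.12, the second not called with the array number as a block, adjusted p = 0.0566), EIF2AK2 (-0.68 and -0.64) and EIF2AK4 (-1.08 and -1.53), and of the Argonaute genes EIF2C1 (-0.24 and -0.44) and EIF2C2 (-2.10 and -1.09), the second being AGO2. Of 16 partners and regulators of initiation, 3 rose and 8 fell in MDA-MB-231 and 1 rose and 5 fell in SKOV3, and 12 of the 16 had a mean above 8, the level at which 39.0% of all genes rose in MDA-MB-231 and 23.4% in SKOV3. PABPC1, the poly(A)-binding protein that eIF4G contacts, fell, with differences of -3.42 ± 0.26 (SE, adjusted p = 4.52e-05) and -2.57 ± 0.29 (SE, adjusted p = 0.000718), further than any initiation factor. Its relative PABPC4 (-2.41 and -1.88), the mRNA-binding LARP1 (-1.06 and -0.82, from means of 8.36 and 8.20 down to 7.30 and 7.39, at the floor, so that its fall may be larger) and the eIF4A inhibitor PDCD4 (-1.14 and -1.48) fell in both lines, and MCTS1, which works with DENR in recycling and reinitiation, rose (0.75 and 0.69, the second not called after cyclic loess or without SKOV3 control 2). PPP1R15A, which directs a phosphatase to eIF2 alpha, had -1.05 in MDA-MB-231 and 0.00 in SKOV3, and the lines differed by -1.05 ± 0.16 (SE, adjusted p = 0.00995), a call lost with the array number as a block (adjusted p = 0.108) and without either SKOV3 control (adjusted p = 0.0544 and 0.0629).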

How the data were processed

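mRNA of 11 samples was measured on HumanHT-12 v4 Expression BeadChips. Per the paper's methods, the authors used lumi for quantile normalization. The deposited table holds 1 value per gene symbol and array, on what its range shows to be a log2-like scale. Whether log2 or a variance-stabilizing transformation was applied, how probes were combined and whether background was removed is not given in the sources used here. The deposited columns did not share a distribution, so they were quantile normalized again. Group means of the 4 groups were fitted to all 31325 genes with limma 3.58.1 in R 4.3.3 (lmFit, eBayes), with Benjamini-Hochberg adjustment over all genes and a threshold of 0.05. The fit was tested on simulated data. The number of arrays limits the precision, and no detection values were used.

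The genes and lists were chosen with earlier results of these data known. Values on every array were given for genes called in both lines without overlap of arrays (up to 6 rises and 6 falls by the mean of both differences), genes called for the difference between lines, the 3 largest called differences between controls in each direction, and a core gene of each factor. EIF2B4 was shown in the plot in addition, and EIF3L was shown after its values were seen. All 48 symbols match a current symbol of GRCh38.p14. The alternatives were the deposited values, median centring, cyclic loess within cell lines, no dim genes, an intensity trend with robust hyperparameters, a replicate block, each line alone, an adjusted p under 0.01, a minimum log2 difference of 0.5, leaving out each array in turn and, chosen after seeing the data, leaving out both miR-365a-3p arrays numbered 1. Protein length and identity between paralogs were not analysed here.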

Additional observations from a re-analysis of the deposited data

Results flagged for a closer look

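The fall of EIF4G1 differed between the cell lines, by -0.77 ± 0.09 (SE, adjusted p = 0.00414) in MDA-MB-231 minus SKOV3, in a limma test of the difference itself. It was the only one of the 48 genes with this call on all 11 arrays. All miR-365a-3p arrays were below every control array of their line. The control groups differed by 0.83, while the miR-365a-3p groups had means of 7.66 and 7.60, near the floor of the scale.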

How the results depend on the processing

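The following counts of initiation factor genes moved by over 1.5 times (the cause was not tested). Rises in MDA-MB-231 numbered 5 on the deposited values and 4 with a difference of at least 0.5. Falls in MDA-MB-231 numbered 8 with each line alone, 6 at an adjusted p under 0.01 and 8 with a difference of at least 0.5. Rises in SKOV3 numbered 5 on the deposited values, 5 after median centring, 5 with each line alone, 3 at an adjusted p under 0.01 and 5 with a difference of at least 0.5. Falls in SKOV3 numbered 3 at an adjusted p under 0.01. Rises in both lines numbered 3 after cyclic loess, 4 with each line alone, 3 at an adjusted p under 0.01 and 2 with a difference of at least 0.5, and falls in both 3 at an adjusted p under 0.01. The difference between lines was called for 3 genes without the arrays numbered 1. With each array left out in turn, MDA-MB-231 had 7 to 9 rises and 8 to 17 falls, SKOV3 3 to 9 and 3 to 6, both lines 3 to 7 and 3 to 6, the difference 1 to 2 calls, and the controls 11 to 15 genes higher in MDA-MB-231 and 3 to 6 higher in SKOV3. The lowest counts in SKOV3 and in both lines came from leaving out a SKOV3 control, which leaves 1 control array assumed to vary like the other groups. The calls over all genes were not counted with an array left out.

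With a replicate block, rises numbered 5 in SKOV3 and 3 in both lines, and the other counts stayed within 1.5 times. The block was set within each line. There, deviations of treated and control arrays with the same number had r of -0.12, 0.04 and 0.23 over 6853 genes in MDA-MB-231. In SKOV3 r was 0.04 and -0.07. With 2 or 3 arrays in a group, these values cannot decide whether the numbers pair the arrays within a line. The miR-365a-3p arrays of the same number in the 2 lines had r of 0.70, 0.31 and 0.34. MDA-MB-231 array 3 had 0.64 with SKOV3 array 2, and no fit with a block across the lines was run.

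Of the called differences, the sign turned for EIF4A2 in MDA-MB-231, at -0.0428 after cyclic loess, and for EIF2B4 in MDA-MB-231, at -0.0187 on the deposited values. The other signs that turned were of differences not called. EIF5 in MDA-MB-231 had -0.226 on the deposited values and -0.194 after median centring, EIF5B in SKOV3 -0.0416 and -0.00408, and EIF4A1 in SKOV3 0.0489 and 0.0865. Without both arrays numbered 1, EIF2B5 in MDA-MB-231 had 0.0769, EIF2S1 in SKOV3 0.0955 and EIF4A1 in SKOV3 0.0515. With each array left out in turn, EIF2B5 in MDA-MB-231 ran from -0.159 to 0.0775 (above 0 without miR-365a-3p array 1 or control 1 or 3), EIF2S1 in SKOV3 from -0.149 to 0.0968 (above 0 without miR-365a-3p array 1), EIF4A1 in SKOV3 from -0.115 to 0.0525 (above 0 without miR-365a-3p array 1 or control 1) and EIF4E2 in SKOV3 from -0.168 to 0.0952 (above 0 without miR-365a-3p array 2 or control 1). Over the 20 genes given in full, 710 values kept direction and side of the threshold, 107 lost the call, 5 gained it and 18 turned. Of the calls over all 48 genes, 8 of 21 in MDA-MB-231 and 5 of 14 in SKOV3 held under all 21 alternatives. Genes near the floor limit what can be seen, since their signal barely exceeds that of unexpressed genes.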

Other observations

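Beyond initiation, genes of later steps of translation also moved in both directions. Of 7 elongation genes, all of them well expressed, 2 rose and 2 fell in MDA-MB-231 and 2 rose and 1 fell in SKOV3, where 39.0% and 26.2%, and then 23.4% and 15.3%, of all genes with a mean above 8 did so. EEF1B2, an exchange factor of eEF1A, rose in both lines (0.47 and 0.35, the second call lost in 8 alternatives), as did EEF1E1, a protein of the tRNA synthetase complex (0.97 and 1.08). EEF2K, the kinase that inhibits eEF2, fell in both (-1.13 and -1.75), and EEF1A1 fell in MDA-MB-231 (-0.44, with 0.01 in SKOV3 and an adjusted p of 0.429 for the difference between lines), a call lost in 14 alternatives, the deposited values among them (-0.39, adjusted p = 0.355). EEF1D, EEF1G and EEF2 were not called on all arrays in the main fit. EEF2 had -0.86 and -0.82, with no overlap of the arrays in either line. Without the arrays numbered 1 it was called down in both (-0.53, adjusted p = 0.00132, and -0.56, adjusted p = 0.00356). After cyclic loess EEF2 was called in MDA-MB-231 (-0.98, adjusted p = 0.0274). EEF1G was called down in SKOV3 with the array number as a block (-0.85, adjusted p = 0.0198). Of 3 termination genes, GSPT1, which encodes eRF3a, fell in MDA-MB-231 (-1.89 ± 0.44 SE, adjusted p = 0.0119) and had -1.18 in SKOV3 (adjusted p = 0.175), and ETF1 and GSPT2 were not called.

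Of 10 genes whose mRNAs begin with a terminal oligopyrimidine tract, a list that includes EIF3E, EIF3F, EIF3H and EIF4B, 1 rose and 3 fell in MDA-MB-231 and 1 rose and 2 fell in SKOV3, against the same shares of genes with a mean above 8, since all 10 are well expressed. The falls in both lines were those of EIF3F and PABPC1, and the rise in both was that of EEF1B2. The median over the list was -0.39 in MDA-MB-231 and -0.29 in SKOV3. It was 0.17 and 0.15 over all genes with a mean above 8, and 0.01 and 0.01 over all genes. As the list was chosen with earlier results of these data known, no conclusion about such mRNAs as a class is drawn from its median.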
